A study of Mus musculus with 8 samples.

Results

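The genes of cholesterol and fatty acid synthesis were examined in mouse bone marrow-derived macrophages (BMDMs) after knockdown of MAARS, a macrophage long non-coding RNA. The set was a list of 35 gene symbols matched through the GENCODE M21 annotation to 35 of the 49315 genes counted, and its rule used gene names rather than measured values, although the list was proposed with earlier results of these data known. It held 18 enzymes of sterol synthesis, 5 regulators of the SREBP transcription factors, 3 sterol transport genes and 9 genes of the fatty acid arm. All 35 passed the filter on low counts, which left 13051 genes in all.

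Marrow of C57BL/6 mice was grown into macrophages in IMDM holding 10% FBS and the growth factor M-CSF at 10 ng/ml, and no other genotype entered the comparison. The cells of both groups received a gapmeR, an antisense oligonucleotide that leads RNase H to the RNA it pairs with, by lipofection. The gapmeR was directed against MAARS in 4 libraries (replicates 9, 11, 13 and 15) and was the negative control #1 in 4 libraries (replicates 2, 5, 6 and 7), at 25 nM according to the labels. The labels do not say whether the 4 libraries of a group came from separate mice or cultures, so p-values measure only the spread between these libraries. No other gapmeR sequence and no untransfected cells were compared here.

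Cholesterol is made from acetyl-CoA through mevalonate, isoprenoids, squalene and lanosterol by enzymes of the endoplasmic reticulum and cytosol. When sterol is scarce in that membrane, Scap escorts the SREBPs to the Golgi, where they are cut and released to switch on this pathway, and Insig proteins hold Scap back when sterol is plentiful. Srebf2 encodes the form tied mainly to sterol synthesis and Srebf1 the forms tied mainly to fatty acid synthesis and desaturation, which are also driven by liver X receptors in sterol-laden macrophages.

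Promoter windows from RefSeq (GRCm38.p6), running from 250 bases before to 50 bases after a transcription start, were found for 27 of the 35 genes. The motifs searched on both strands were the sterol regulatory element TCACNCCAC, the CCAAT box bound by NF-Y, the GC box GGGCGG bound by Sp1 factors and the E-box CACGTG. The CCAAT box was present in a window of 14 of 15 sterol synthesis enzymes (93.3%), of 4 of 5 SREBP regulators and of 2 of 6 fatty acid genes (33.3%), and in 41.1% of the 27025 genes with a window. Counted by window it was in 14 of 18 sterol enzyme windows (77.8%) and in 37.4% of all windows. The GC box was present for 14 of 15 sterol enzymes, 5 of 5 regulators and 2 of 6 fatty acid genes (38.2% of all genes), and the E-box for 3, 2 and 0 of them (8.09% of all genes). The element TCACNCCAC occurred in 1.24% of all 32851 windows. Among the 27 genes with a window it was found for Hmgcs1 alone, 137 bases before the start. The genes with no window, among them Sqle, Fdps and Fdft1, could not be searched. In the fatty acid arm the only window of Acaca lay 65766 bases from its GENCODE start and held none of the motifs. Scd1, Scd2 and Fads1 had no window, so the counts of that arm rest on few genes. These matches describe letters in a window and were not tested as binding sites. The windows below are those of Hmgcs1, with the one TCACNCCAC match and 4 CCAAT boxes, of Mvk and Nsdhl, which fell and held 5 and 4 CCAAT boxes, of the regulator Insig1, with 1, and of Lpin1 and Fads2, the fatty acid genes with the highest fold changes, which held neither motif. Other fatty acid genes differed from these, with 3 CCAAT boxes in the window of Fasn and 1 in that of Acly. Of the other sterol enzymes that fell, Hsd17b7 held 3, Lss 1, Pmvk 1 and 0 in its windows, and Dhcr7 0, 0 and 2. Msmo1, which did not pass, held 3, and Tm7sf2, which rose, held 1. A link between these boxes and the direction of change was not tested. Each window below is written 5′ to 3′ with the TCACNCCAC and CCAAT matches of either strand in capitals. CCAAT on the other strand thus reads ATTGG, and in the Hmgcs1 window the matches share no base.
Hmgcs1 (chr13:119690101-119690400, plus strand): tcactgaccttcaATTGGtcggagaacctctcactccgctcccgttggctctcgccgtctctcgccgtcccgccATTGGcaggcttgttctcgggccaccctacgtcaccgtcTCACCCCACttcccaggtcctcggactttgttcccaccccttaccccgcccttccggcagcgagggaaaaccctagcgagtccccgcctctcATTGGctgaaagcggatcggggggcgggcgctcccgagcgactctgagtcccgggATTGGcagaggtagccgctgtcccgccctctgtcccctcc
Mvk (chr5:114444019-114444318, plus strand): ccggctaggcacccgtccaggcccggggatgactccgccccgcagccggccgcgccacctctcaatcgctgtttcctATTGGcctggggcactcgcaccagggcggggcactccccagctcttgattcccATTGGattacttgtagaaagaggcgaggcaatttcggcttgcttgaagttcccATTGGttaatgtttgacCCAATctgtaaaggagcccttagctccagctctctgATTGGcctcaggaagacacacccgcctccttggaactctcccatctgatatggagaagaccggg
Nsdhl (chrX:72918271-72918570, plus strand): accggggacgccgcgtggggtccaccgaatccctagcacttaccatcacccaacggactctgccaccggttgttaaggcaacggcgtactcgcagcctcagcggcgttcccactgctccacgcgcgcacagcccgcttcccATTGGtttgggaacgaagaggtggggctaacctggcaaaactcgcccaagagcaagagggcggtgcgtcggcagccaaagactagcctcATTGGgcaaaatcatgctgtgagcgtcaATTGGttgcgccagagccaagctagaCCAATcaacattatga
Insig1 (chr5:28071162-28071461, plus strand): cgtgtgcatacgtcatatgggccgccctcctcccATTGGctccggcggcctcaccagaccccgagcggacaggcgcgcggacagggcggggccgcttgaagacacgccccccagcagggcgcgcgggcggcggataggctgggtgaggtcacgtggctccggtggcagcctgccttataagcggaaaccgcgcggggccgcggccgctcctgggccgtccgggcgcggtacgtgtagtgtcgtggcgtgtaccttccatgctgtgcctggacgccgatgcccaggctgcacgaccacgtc
Lpin1 (chr12:16610917-16611216, minus strand): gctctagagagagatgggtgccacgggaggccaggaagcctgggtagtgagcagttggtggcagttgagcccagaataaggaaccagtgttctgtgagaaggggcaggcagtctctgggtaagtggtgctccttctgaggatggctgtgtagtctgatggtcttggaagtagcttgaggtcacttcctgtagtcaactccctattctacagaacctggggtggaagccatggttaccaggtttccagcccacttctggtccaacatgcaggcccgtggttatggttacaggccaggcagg
Fads2 (chr19:10101454-10101753, minus strand): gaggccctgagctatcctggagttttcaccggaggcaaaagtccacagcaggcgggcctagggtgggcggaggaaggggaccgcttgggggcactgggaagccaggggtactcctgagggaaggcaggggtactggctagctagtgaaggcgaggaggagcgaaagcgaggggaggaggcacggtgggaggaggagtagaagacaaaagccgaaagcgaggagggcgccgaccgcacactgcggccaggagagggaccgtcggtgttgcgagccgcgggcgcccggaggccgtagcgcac

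MAARS itself was measured at 12.2, 15.1, 12.98 and 12.2 CPM (each count scaled by the TMM-adjusted total of its library) in the control libraries and at 7.71, 6.41, 7.31 and 5.85 CPM in the MAARS gapmeR libraries. It fell by 0.95 on the log2 scale (SE 0.11, adjusted p = 5.8e-05), and its groups did not overlap (two-sided exact permutation p = 0.0286, the smallest that 4 against 4 libraries allow). Each library held 19287279 to 20567123 counts in the control group and 20839671 to 24541205 in the MAARS gapmeR group, so every MAARS gapmeR library was deeper than every control library. With edgeR's quasi-likelihood test and an adjusted p under 0.05, 2782 genes (21.3%) were higher and 3137 (24.0%) lower with the MAARS gapmeR. The 4 and 4 libraries did not overlap for 19.3% of genes in the higher and 22.8% in the lower direction. Of the calls, 47.0% were in the higher direction with TMM factors and 60.4% with upper-quartile factors, which moved the median log2 fold change of all genes by 0.063.

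Macrophage markers were abundant, summing to 13800 to 17100 CPM in the control and 17000 to 20200 CPM in the MAARS gapmeR libraries. Lyz2 made up most of this sum, with means of 9402 CPM in the control and 13170 CPM in the MAARS gapmeR group. Of the 8 markers, 5 rose (against 21.3% of all genes) and 2 fell (against 24.0%). Those that fell were Fcgr1 (log2 fold change -2.09, adjusted p = 7.12e-06) and Cd68 (-0.34, adjusted p = 0.000164). The 7 fibroblast and stromal markers, led by the collagens Col1a1 and Col1a2, summed to 460 to 1050 CPM in the control and 720 to 1240 CPM in the MAARS gapmeR group, and none of the 6 tested passed. Neutrophil markers summed to 71.8 to 209 and 74.4 to 120 CPM, with 0 of 6 tested called. Of the T cell markers only Cd4, which macrophages can express, was tested and it fell, and Cd3g was at 0 in all libraries. B cell markers summed to at most 2.46 CPM and erythroid markers to at most 0.65 CPM. In bulk RNA, fewer cells of a type and less RNA per cell cannot be told apart.

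The sterol synthesis enzymes did not move as a block. Of the 18, 6 fell (33.3%, against 24.0% of all genes), 1 rose (5.56%, against 21.3%) and 11 did not pass the test, and the median log2 fold change was -0.08, beside 0.01 over all genes tested. The 6 were Mvk, Pmvk, Lss, Nsdhl, Hsd17b7 and Dhcr7, and the 1 that rose was Tm7sf2. The groups did not overlap for 3 of the 18 in the lower direction (against 22.8% of all genes) and for 1 in the higher (against 19.3%). None of the 18 reached 1.5-fold in either direction. The plot of fold changes in pathway order shows the calls spread from mevalonate phosphorylation to the last reduction, with uncalled enzymes between them.

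**Figure D1:**
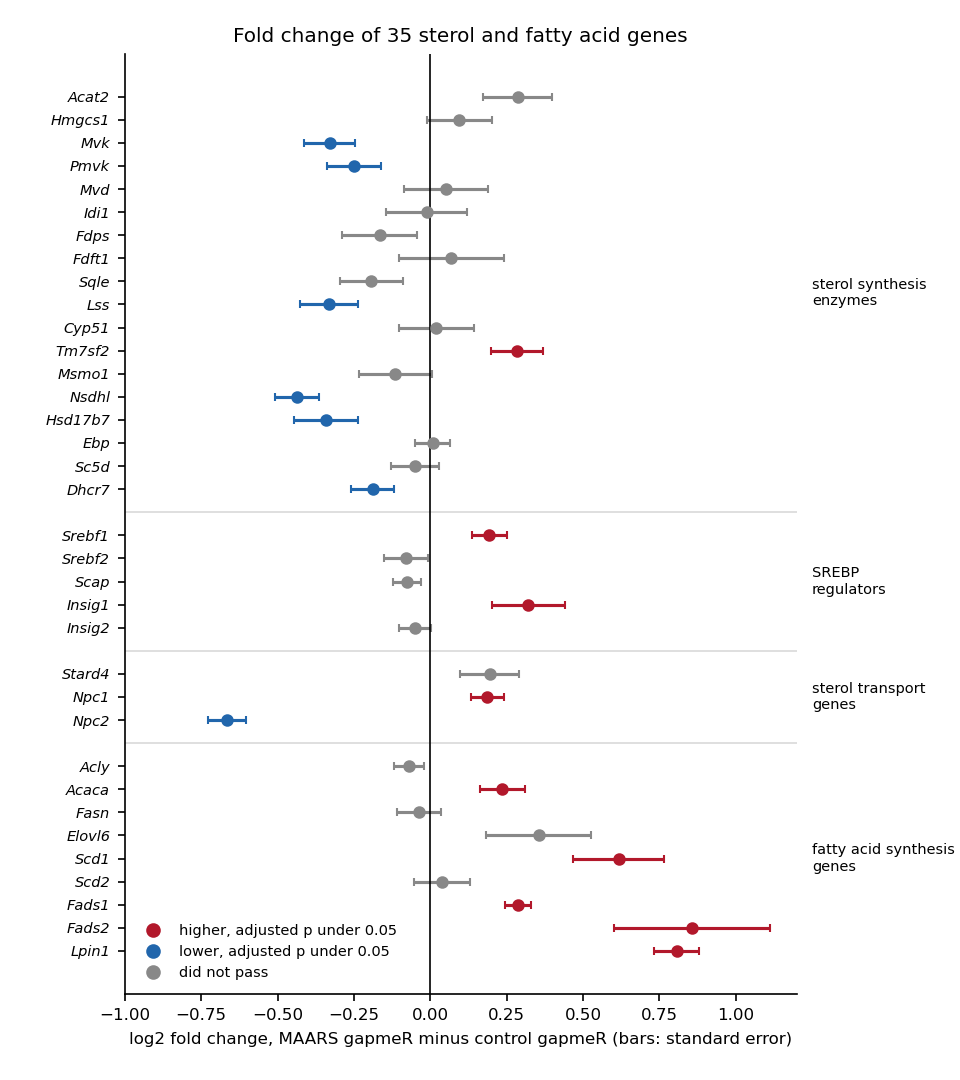
Log2 fold change (x axis, MAARS gapmeR minus control gapmeR) with its standard error for each of the 35 genes (y axis, in pathway order within each group), from edgeR on 4 and 4 libraries. Red marks the 9 genes higher (25.7%, against 21.3% of all genes) and blue the 7 lower (20%, against 24.0%) at an adjusted p under 0.05. Of the red points 5 are among the 9 fatty acid genes, and of the blue points 6 are among the 18 sterol enzymes.

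Nsdhl, the dehydrogenase that helps remove the C-4 methyl groups of the sterol ring, had the smallest p of the arm. It was measured at 29.6, 29.6, 26.4 and 27.7 CPM in the control libraries and at 22.6, 22.4, 19.4 and 19.3 CPM in the MAARS gapmeR libraries, a fall of 0.44 on the log2 scale (SE 0.07, adjusted p = 0.00061). The highest MAARS gapmeR library lay below the lowest control library. Hsd17b7, the ketosteroid reductase of the same demethylation complex, stood at 18.8, 19.4, 18.0 and 15.03 CPM in the controls and at 12.2, 15.1, 13.1 and 15.7 CPM with the MAARS gapmeR. It fell by 0.34 (SE 0.11, adjusted p = 0.0208), and its groups overlapped because control replicate 7 lay below MAARS replicates 11 and 15. Msmo1, the oxidase that opens this demethylation, was at 96.8 ± 19.7 and 89.4 ± 6.31 CPM (mean ± SD, n = 4) and did not pass (log2 fold change -0.11, adjusted p = 0.466).

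The 2 kinases that phosphorylate mevalonate both fell. Mvk was measured at 24.0, 22.3, 20.2 and 19.4 CPM in the control libraries and at 17.0, 18.7, 15.8 and 16.8 CPM in the MAARS gapmeR libraries, a log2 fold change of -0.33 (SE 0.08, adjusted p = 0.00803) with no overlap. Pmvk stood at 13.7, 14.4, 12.4 and 12.3 CPM in the controls and at 9.84, 11.7, 11.5 and 11.4 CPM with the MAARS gapmeR, a log2 fold change of -0.25 (SE 0.09, adjusted p = 0.0386), also with no overlap. Pmvk did not pass with DESeq2 (adjusted p = 0.0527), upper-quartile factors (0.107) or no filter (0.0633), without MAARS replicate 9, its lowest library (log2 fold change -0.20, adjusted p = 0.0902), nor without control replicate 2 (-0.23, 0.0847) or 5 (-0.21, 0.0917) or MAARS replicate 13 (-0.27, 0.0537) or 15 (-0.26, 0.0582). The neighbouring steps did not pass: Hmgcs1, which makes HMG-CoA, was at 0.09 on the log2 fold change scale (adjusted p = 0.495), Mvd, the decarboxylase that follows Pmvk, 0.05 (0.782), and Idi1, the isomerase after it, -0.01 (0.952).

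Lss, the cyclase that folds oxidosqualene into lanosterol, was measured at 27.4, 25.4, 24.7 and 20.5 CPM in the control libraries and at 21.05, 20.4, 17.2 and 19.1 CPM in the MAARS gapmeR libraries. It fell by 0.33 (SE 0.09, adjusted p = 0.0142), and control replicate 7 overlapped the MAARS gapmeR group. Dhcr7, the reductase of the last step of one branch, was at 40.3 ± 3.72 and 35.4 ± 1.62 CPM (mean ± SD, n = 4), with a log2 fold change of -0.19 (SE 0.07, adjusted p = 0.0451). That call did not hold with DESeq2 (adjusted p = 0.0542), upper-quartile factors (0.156), or without control replicate 2 (0.122), 5 (0.1) or 6 (0.06) or MAARS replicate 9 (0.0756), 11 (0.0821) or 13 (0.107).

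Tm7sf2, a sterol C-14 reductase, moved the other way, at 11.01, 10.9, 10.5 and 10.1 CPM in the control libraries and 12.1, 13.8, 11.9 and 13.9 CPM in the MAARS gapmeR libraries. It rose by 0.28 on the log2 scale (SE 0.08, adjusted p = 0.0176) with no overlap, but not without MAARS replicate 11 (0.25, adjusted p = 0.0528). Of its exon length, 12.1% is shared on the same strand with Vps51, so reads of the neighbour could enter its count. Acat2, the cytosolic thiolase that begins the pathway, differed by a like amount (log2 fold change 0.29, SE 0.11), with an adjusted p of 0.0561.

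The remaining enzymes did not pass. Sqle, the squalene epoxidase, was at 67.8 ± 10.7 and 59.3 ± 5.06 CPM (mean ± SD, n = 4; adjusted p = 0.147), and Fdps, which makes farnesyl diphosphate, at 26.4 ± 5.25 and 23.5 ± 1.56 CPM (adjusted p = 0.293). Without control replicate 7 both passed in the lower direction, with log2 fold changes of -0.276 (adjusted p = 0.0325) and -0.285 (adjusted p = 0.027). The log2 fold changes of Fdft1 (squalene synthase, 0.07), Cyp51 (lanosterol demethylase, 0.02), Ebp (sterol isomerase, 0.01) and Sc5d (sterol desaturase, -0.05) were smaller than their standard errors. Fdps shares 26.7% of its exon length on the same strand with Gm43738 and Fdft1 18.3% on the opposite strand with Ctsb, and the sources used here do not give the strand setting of the counting.

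The spread of these enzymes within the control group was wide and shared. In each of the 18 genes, control replicates 2 and 5 were both above replicates 6 and 7, an order seen in 22.1% of all genes tested and in 5 of the 9 fatty acid genes. Replicate 7 was the lowest control in 15 of the 18 and replicate 6 in 3, whereas each library was lowest for 20.3% to 28.5% of all genes. The mean log2 CPM over the 18 genes, relative to the control mean, was 0.12 in replicate 2, 0.20 in replicate 5, -0.09 in replicate 6 and -0.22 in replicate 7. The 4 MAARS gapmeR libraries lay inside that range, at -0.05, -0.02, -0.18 and -0.08 in replicates 9, 11, 13 and 15. The median SD of log2 CPM over these genes was 0.20 in the control group, against 0.119 over all genes, and 0.112 in the MAARS gapmeR group, against 0.11. The heat map of levels by library shows this gradient across the control columns of the sterol rows.

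**Figure D2:**
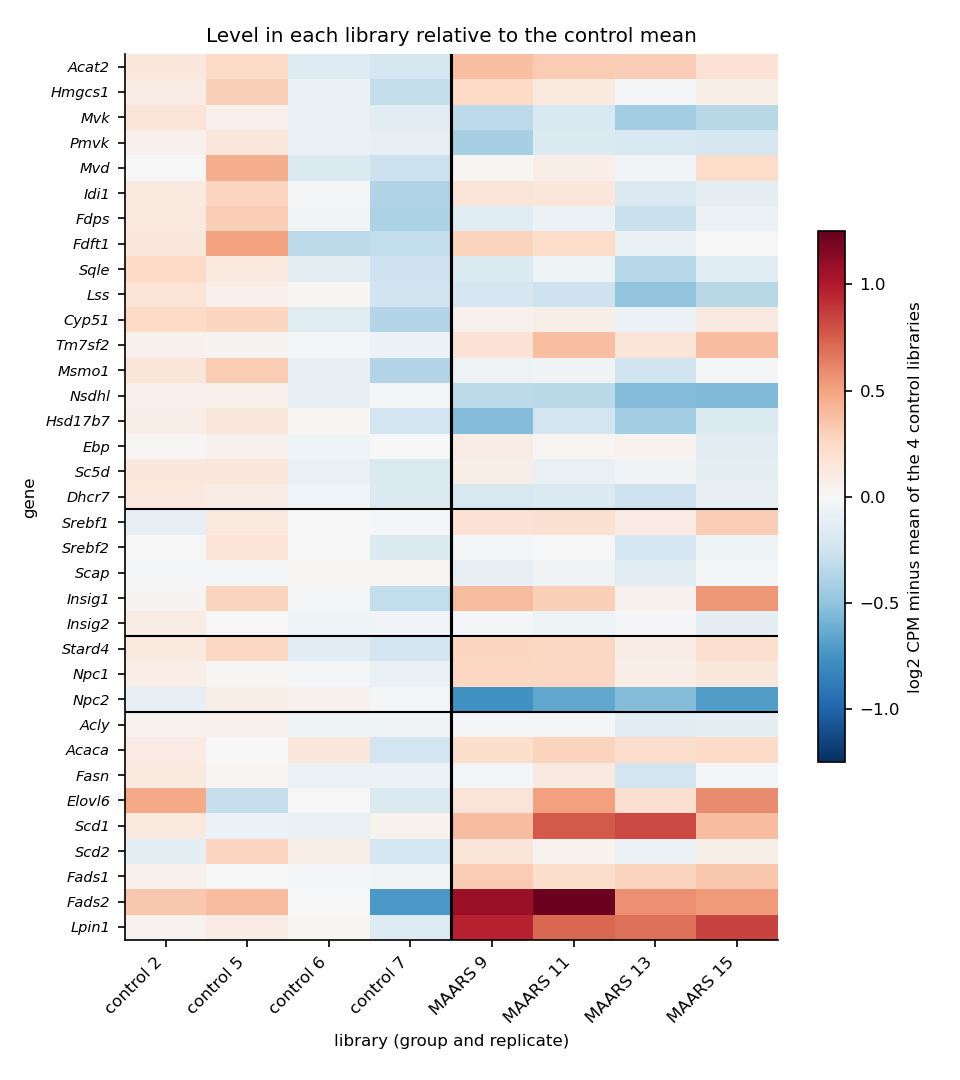
Log2 CPM of each of the 35 genes (y axis, groups separated by lines) in each of the 8 libraries (x axis), minus the mean of the 4 control libraries. In the sterol rows the control columns run from red in replicates 2 and 5 to blue in 6 and 7, while Npc2 is blue and Fads1, Fads2, Scd1 and Lpin1 are red in all 4 MAARS gapmeR columns.

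Levels of other lists moved with this gradient in the controls. The summed stromal markers were 460 CPM in control replicate 5, 623 in replicate 2, 754 in replicate 6 and 1050 in replicate 7, the reverse of the order of the sterol enzymes, and the stromal marker Lum was at 0 in all 4 controls. In the MAARS gapmeR group the library with the lowest sterol mean, replicate 13, also had the highest stromal sum, 1240 CPM, while replicates 9, 15 and 11 had 720, 771 and 922 CPM. The reverse order did not hold there, since replicate 11 had the highest sterol mean and the stromal sum next below that of replicate 13. The summed neutrophil markers had the same order as the stromal sum in the controls, at 71.8, 98.4, 122 and 209 CPM. The part of these in the spread or in the comparison was not tested. In a comparison chosen after seeing the data, control replicate 7 and MAARS replicate 13 were left out: 5 sterol enzymes were then lower and 1 higher, and Pmvk no longer passed (log2 fold change -0.30, adjusted p = 0.0558). The count of lower enzymes depended on single libraries: it was 3 without control replicate 5, MAARS replicate 9 or MAARS replicate 13, and 8 without control replicate 7. Hsd17b7 was among those lost in each of the 3 cases, with log2 fold changes of -0.30, -0.28 and -0.31 (adjusted p = 0.0537, 0.0528 and 0.0537). The count of higher enzymes was 0 without MAARS replicate 11 and 2 without control replicate 2 or 5, where Acat2 passed as well (log2 fold change 0.33 and 0.37, adjusted p = 0.0429 and 0.0203).

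Of the 5 SREBP regulators, Srebf1 and Insig1 rose (40% of the list, against 21.3% of all genes) and Srebf2, Scap and Insig2 did not pass. Srebf1 was measured at 75.4, 87.7, 80.9 and 79.2 CPM in the control libraries and at 91.6, 91.9, 86.4 and 99.5 CPM in the MAARS gapmeR libraries, a log2 fold change of 0.19 (SE 0.06, adjusted p = 0.0186). Control replicate 5 was above MAARS replicate 13, and without MAARS replicate 15 the change was 0.16 (adjusted p = 0.0542). Srebf2 was at 163 ± 16.0 and 154 ± 10.5 CPM (mean ± SD, n = 4; log2 fold change -0.08, SE 0.07, adjusted p = 0.397). The ratio of Srebf2 to Srebf1 per exon length was 1.68, 1.64, 1.58 and 1.43 in the control libraries and 1.37, 1.39, 1.26 and 1.22 in the MAARS gapmeR libraries, which did not overlap.

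Insig1, the sterol-sensitive anchor of Scap, stood at 78.9, 93.5, 76.3 and 62.3 CPM in the control libraries and at 101, 94.8, 80.1 and 112 CPM in the MAARS gapmeR libraries. Its log2 fold change was 0.32 (SE 0.12, adjusted p = 0.0468), and the groups overlapped, with control replicate 5 above MAARS replicate 13. The call ended with the counts thinned to a common depth (adjusted p = 0.0513), without control replicate 2 (0.0612), 6 (0.0964) or 7 (0.116), and without MAARS replicate 9 (0.0996), 11 (0.0742) or 15 (0.136), where the log2 fold change was 0.23 to 0.33. Insig2 was at 34.1 ± 1.52 and 33.0 ± 1.08 CPM, and Scap, the escort protein, at 59.1 ± 1.28 and 56.1 ± 2.28 CPM (mean ± SD, n = 4; adjusted p = 0.467 and 0.208). Scap shares 13.2% of its exon length with a gene on the opposite strand.

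The 3 sterol transport genes went different ways. Npc2, the soluble lysosomal protein that hands cholesterol to the membrane protein Npc1, was the most abundant of the 35 genes and fell most. It was measured at 2624, 2960, 2923 and 2758 CPM in the control libraries and at 1662, 1789, 1927 and 1729 CPM in the MAARS gapmeR libraries. It fell by 0.66 on the log2 scale (SE 0.06, adjusted p = 1.18e-05), to 0.631 of the control level, and the groups were far apart. Npc1 stood at 446, 427, 415 and 399 CPM in the controls and at 503, 506, 448 and 464 CPM with the MAARS gapmeR, and rose by 0.19 (SE 0.05, adjusted p = 0.0164). The lowest MAARS gapmeR library of Npc1 was just above the highest control, and without MAARS replicate 11 the call was lost (0.16, adjusted p = 0.0529). Per exon length, Npc2 exceeded Npc1 by 12.2, 14.4, 14.6 and 14.4 times in the control libraries and by 6.88, 7.36, 8.96 and 7.75 times in the MAARS gapmeR libraries. Stard4, a cytosolic sterol carrier, had a log2 fold change of 0.19 (SE 0.10) and did not pass (adjusted p = 0.123), except with upper-quartile factors (0.26, 0.0456) or without control replicate 5 (0.28, 0.0232). Counted together, 3 of the 8 regulators and transport genes rose (37.5%, against 21.3% of all genes) and 1 fell (12.5%, against 24.0%). The groups did not overlap for 1 of the 8 in the higher direction (against 19.3% of all genes) and 1 in the lower (against 22.8%). The count that rose was 1 without MAARS replicate 11 or 15.

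In the fatty acid arm 5 of the 9 genes rose (55.6%, against 21.3% of all genes) and none fell (0%, against 24.0%), with a median log2 fold change of 0.29. The same 5, Lpin1, Fads2, Scd1, Fads1 and Acaca, had groups that did not overlap (55.6%, against 19.3% of all genes). They are a phosphatidic acid phosphatase, 3 desaturases and the carboxylase that commits acetyl-CoA to fatty acid synthesis. The mean log2 CPM over the 9 genes, relative to the control mean, ran through 0.13, 0.05, 0 and -0.18 over control replicates 2, 5, 6, 7 and through 0.36, 0.43, 0.26 and 0.32 over MAARS replicates 9, 11, 13, 15. In this mean all MAARS gapmeR libraries thus lay above all controls, unlike in the sterol arm. Its members were uneven: Lpin1, Fads2 and Scd1 had log2 fold changes of 0.81, 0.86 and 0.62, and Acly, Fasn and Scd2 of -0.07, -0.04 and 0.04. The mean therefore does not show that the whole arm moved. Over 24 genes of a wider fatty acid list, described below, it was -0.075, -0.057, -0.055 and 0.003 in MAARS replicates 9, 11, 13 and 15. In the controls it was -0.045 to 0.054.

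**Figure D3:**
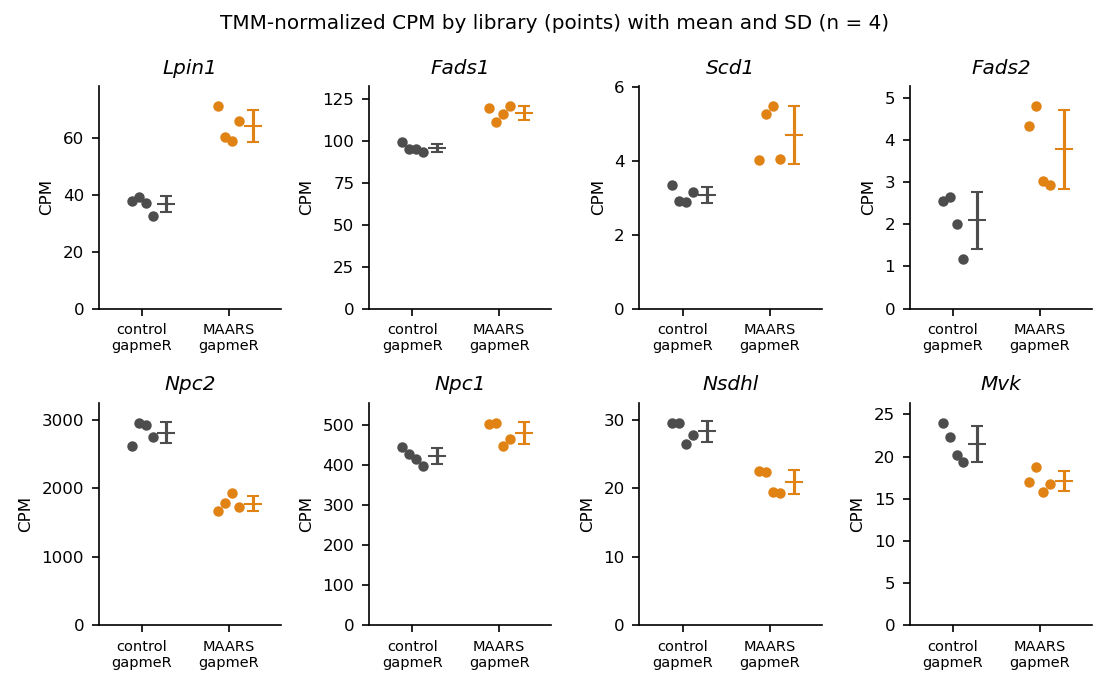
TMM-normalized CPM (y axis, from 0) of 8 genes in each control gapmeR library (grey) and each MAARS gapmeR library (orange), with the mean and SD of the 4 beside the points. All 8 belong to the genes whose groups did not overlap (7 higher and 4 lower of the 35), so the groups are apart in each panel by this choice. Lpin1, Fads1, Scd1, Fads2 and Npc1 are higher and Npc2, Nsdhl and Mvk lower with the MAARS gapmeR. For Npc1 the gap is narrow, from 446 CPM in control replicate 2 to 448 CPM in MAARS replicate 13.

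Lpin1, which turns phosphatidic acid into diacylglycerol and also acts as a transcriptional coregulator, had the smallest p of the 35 genes. It was measured at 37.7, 39.1, 37.0 and 32.7 CPM in the control libraries and at 71.1, 60.3, 58.9 and 65.9 CPM in the MAARS gapmeR libraries, a rise of 0.81 on the log2 scale (SE 0.07, adjusted p = 1.11e-05) or 1.75-fold. The lowest MAARS gapmeR library was well above the highest control.

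Fads1 and Fads2 encode the delta-5 and delta-6 desaturases of polyunsaturated fatty acid synthesis and lie close together on chromosome 19. Fads1 was measured at 99.5, 95.3, 95.02 and 93.5 CPM in the control libraries and at 119, 111, 116 and 121 CPM in the MAARS gapmeR libraries, a rise of 0.29 (SE 0.04, adjusted p = 0.000316). Both groups of Fads1 were tight, so that this small change had the second smallest p of the arm. Fads2 was far less abundant, at 2.56, 2.65, 2.00 and 1.18 CPM in the controls and 4.35, 4.81, 3.03 and 2.95 CPM with the MAARS gapmeR, which rested on 24 to 121 counts per library. It rose by 0.86 (SE 0.26, adjusted p = 0.0178), and without MAARS replicate 11 by 0.71 with an adjusted p of 0.0586. Per exon length, Fads1 exceeded Fads2 by 24.6 to 54.3 times in the controls and 15.8 to 28.1 times with the MAARS gapmeR, ranges that overlapped.

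Scd1 and Scd2 encode stearoyl-CoA desaturases, which make monounsaturated fatty acids, and are close paralogs on chromosome 19, so reads shared between them may be split or lost. Scd1 was measured at 3.33, 2.90, 2.87 and 3.14 CPM in the control libraries and at 4.02, 5.25, 5.47 and 4.03 CPM in the MAARS gapmeR libraries, a rise of 0.62 (SE 0.15, adjusted p = 0.00604). These values rested on 53 to 132 counts per library. Scd2 was the main form, at 198 ± 30.0 and 203 ± 12.7 CPM (mean ± SD, n = 4; log2 fold change 0.04, SE 0.09, adjusted p = 0.763). The ratio of Scd2 to Scd1 per exon length was 48.5, 72.6, 64.7 and 48.0 in the controls and 48.5, 34.5, 30.6 and 45.7 with the MAARS gapmeR, so that only MAARS replicate 9 reached into the control range.

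Acaca, acetyl-CoA carboxylase, was measured at 35.6, 33.4, 36.4 and 28.1 CPM in the control libraries and at 38.8, 40.3, 38.8 and 39.3 CPM in the MAARS gapmeR libraries. It rose by 0.24 (SE 0.07, adjusted p = 0.0228), and the call was lost without MAARS replicate 11 (0.22, adjusted p = 0.0557) and with control replicate 7 and MAARS replicate 13 both left out (0.17, adjusted p = 0.0676). The enzymes on either side of it did not pass. Acly, which supplies cytosolic acetyl-CoA, was at 234 ± 9.95 and 223 ± 10.6 CPM, and Fasn, the fatty acid synthase, at 74.9 ± 4.87 and 73.0 ± 7.17 CPM (mean ± SD, n = 4; log2 fold changes -0.07 and -0.04, adjusted p = 0.278 and 0.706). Elovl6, which elongates palmitate, stood 0.36 higher on the log2 scale (SE 0.17, adjusted p = 0.112) and passed only without control replicate 2, its highest control (0.55, adjusted p = 0.0119). The count of fatty acid genes that rose was 3 without MAARS replicate 11.

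Adipocyte RNA, which is rich in desaturase transcripts, was checked by 5 markers. Adipoq, Cidec and Lep were at 0 in all 8 libraries, Plin1 was at 0.0384 CPM in the controls and 0 with the MAARS gapmeR, and Fabp4, which macrophages also express, fell from 153 to 122 CPM (adjusted p = 0.00156). With control replicate 7 and MAARS replicate 13 left out, 4 fatty acid genes rose.

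Levels were compared between genes per kilobase of exon (TMM-scaled CPM per kilobase). In the controls the order ran from Npc2 at 518, Acly at 44.4, Npc1 at 37.3, Scd2 at 36.2 and Hmgcs1 at 31.8 down to Acaca at 1.96, Elovl6 at 0.924, Fads2 at 0.637 and Scd1 at 0.626. Of the 34 pairs of neighbours in this order, 30 had overlapping ranges over the 4 libraries. The genes of a pair were not compared within each library, so an overlap of ranges does not show that their levels were alike. The steps with no overlap were those from Npc2 to Acly, from Acly to Npc1, from Fdft1 to Tm7sf2 and from Acaca to Elovl6. In the MAARS gapmeR group Lpin1 stood at position 21 in place of 26, Nsdhl at 19 in place of 15 and Mvk at 23 in place of 19. Fads2 and Scd1, which rose by 0.86 and 0.62 on the log2 scale, were among the 3 least abundant of the 35 in both groups, as the plot of levels per exon length shows, whereas Lpin1, which rose by 0.81, was not.

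**Figure D4:**
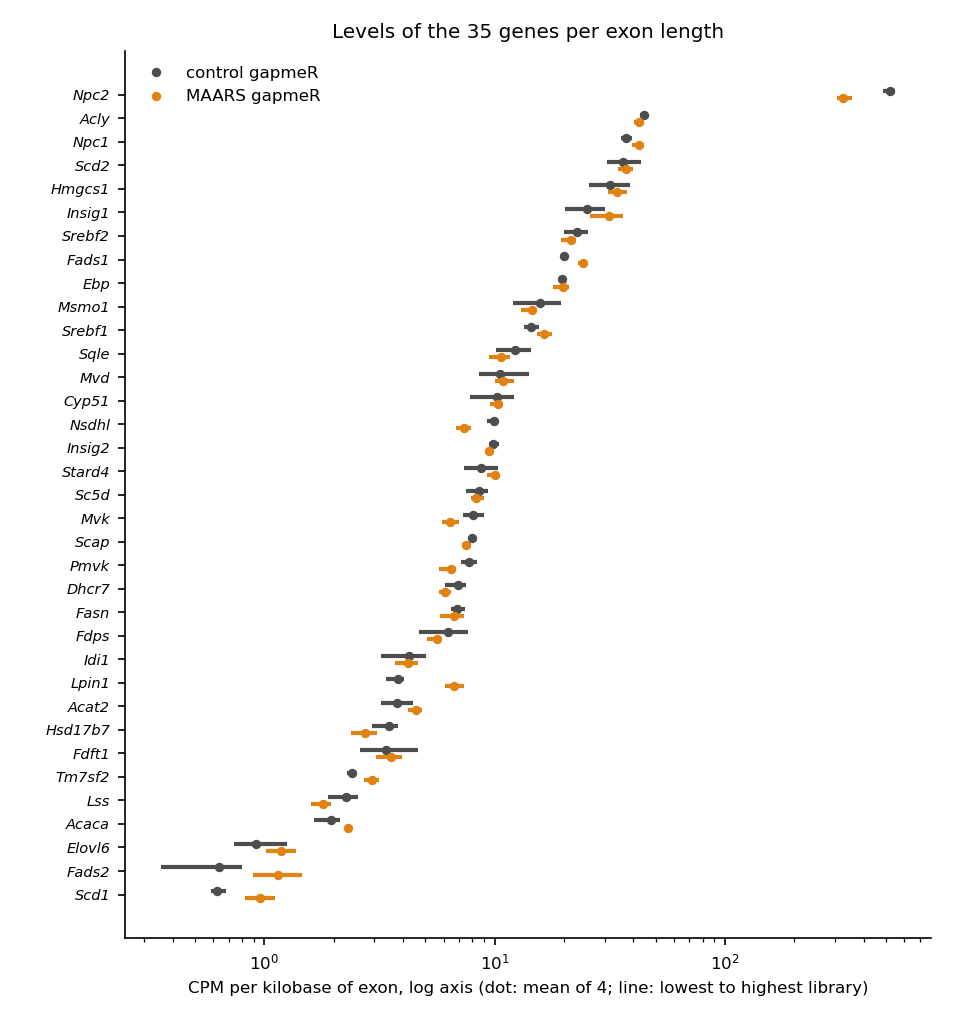
Level of each gene per kilobase of exon (x axis, log scale, TMM-scaled CPM per kilobase) with genes ordered by their control mean (y axis). Dots are means of 4 libraries and lines run from the lowest to the highest library, in grey for the control and orange for the MAARS gapmeR, and the control lines of most neighbours overlap.

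Other genes of the pathways were taken from 2 lists outside the 35. Of 22 further sterol genes, 21 were tested, and 3 rose (14.3%, against 21.3% of all genes), 4 fell (19%, against 24.0%) and 14 did not pass, with a median log2 fold change of 0.02. Of 26 further fatty acid genes, 24 were tested, and 4 rose (16.7%, against 21.3% of all genes), 9 fell (37.5%, against 24.0%) and 11 did not pass, with a median of -0.12.

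Among the further sterol genes, Stard3, which moves cholesterol at late endosomes, had the smallest p, at 108, 125, 137 and 128 CPM in the control libraries and 63.1, 63.7, 72.2 and 63.9 CPM in the MAARS gapmeR libraries. It fell by 0.92 (SE 0.07, adjusted p = 6.27e-06), so that Npc2 and Stard3 fell while Npc1 rose among endosomal cholesterol carriers. Mbtps1, the site-1 protease that makes the opening cut in the SREBPs, was at 64.3, 64.1, 66.1 and 63.7 CPM in the controls and 95.9, 88.2, 84.4 and 85.2 CPM with the MAARS gapmeR, and rose by 0.45 (SE 0.05, adjusted p = 3.32e-05). Mbtps2, the protease of the following cut, did not pass (log2 fold change 0.05, adjusted p = 0.443). Cyp27a1, the mitochondrial sterol 27-hydroxylase, stood at 20.2, 30.4, 25.4 and 19.4 CPM in the controls and 60.6, 36.8, 47.8 and 47.6 CPM with the MAARS gapmeR, and rose by 1.02 (SE 0.16, adjusted p = 0.000416). Ch25h, the other hydroxylase, had 3 to 15 counts per library and was not tested.

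Among the further fatty acid genes, Mlx, the partner of the carbohydrate-response factor ChREBP, fell by 0.56 (SE 0.05, adjusted p = 1.49e-05). Mlx went from 39.7 ± 1.53 to 27.0 ± 1.07 CPM (mean ± SD, n = 4), and 19.3% of its exon length is shared with Psmc3ip on the opposite strand. Mlxipl, the gene of ChREBP, had 0 to 3 counts per library and was not tested. Elovl1, an elongase of very long chains, fell by 0.25 (SE 0.05, adjusted p = 0.00113), and Hacd2, a dehydratase of the elongation cycle, fell by 0.43 (SE 0.08, adjusted p = 0.00127). Mlx, Elovl1 and Hacd2 did not overlap between the groups, but they were named for their small p, which favours such genes. Of the 24 genes tested in this list, 7 did not overlap in the lower direction (against 22.8% of all genes). In the higher direction 4 did not (against 19.3%).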

How the data were processed

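Raw RNA-Seq counts of 8 BMDM libraries were used. The authors trimmed the paired reads with Trimmomatic 0.36, aligned them with STAR 2.5.2b to GRCm38 (mm10) and counted them per gene with featureCounts of Subread 1.5.2, and the deposited values are these counts for 49315 genes, not normalized. The strand setting, the treatment of reads that map to several places and whether fragments or reads were counted are not given in the sources used here. Symbols, positions, exon lengths and overlaps came from GENCODE M21, in which 99.47% of the genes were found. 0 per-sample columns were left out.

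After filterByExpr (count minimum 10, total minimum 15), genes were compared with TMM factors, glmQLFit and glmQLFTest in edgeR 4.0.16 (R 4.3.3, limma 3.58.1), with Benjamini-Hochberg adjustment over 13051 genes and a call at 0.05. A standard error is the absolute log2 fold change over the root of its F statistic. Replicates of a group differed by a chi-square of 4.02 to 14.1 per gene, beyond sampling noise. Precision rests on library totals of 19287279 to 24541205 counts. Lists were described by counts and medians beside all genes, with no list test. The procedure was tested on simulated counts.

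Alternatives were RLE and upper-quartile factors, DESeq2 1.42.0, limma-voom, a mean of at least 10 counts as the filter, no filter, counts thinned to the smallest total, each library left out, a 1.5-fold minimum and an adjusted p under 0.01. Leaving out the library richest in stromal markers of each group was added after seeing the data. The 35 genes, the 2 wider lists and the marker lists (macrophage, neutrophil, T cell, B cell, erythroid, stromal, adipocyte) were chosen with earlier results of these data known. The rule for named genes covered all 35, with values in every library for the called regulators and transport genes and for the 6 sterol enzymes and 5 fatty acid genes with the smallest p. Outside the 35 it named MAARS, the 3 called genes of smallest p in both wider lists, Ch25h, Mbtps1 and Mbtps2, some by mean or fold change only. Marker genes, Mlxipl and the genes under other observations were named after their values were seen.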

Additional observations from a re-analysis of the deposited data

Results flagged for a closer look

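Each group of 4 libraries was examined for a library far from the other 3 in each of the 35 genes and MAARS, 72 groups in all, and 1 was found. Pmvk in MAARS replicate 9 was at 9.84 CPM while the other 3 MAARS gapmeR libraries were at 11.4 to 11.7 CPM. Chance marks about 1 in 20 such groups, and without this library Pmvk did not pass the test (log2 fold change -0.20, adjusted p = 0.0902).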

How the results depend on the processing

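No paired analysis was possible because the 2 groups share no replicate numbers. Over the 35 log2 fold changes and 16 alternatives, 486 of 560 values kept their direction and side of the threshold, 33 lost a call, 12 gained one and 29 changed sign. The sign changes were all in 9 genes that did not pass in any of these fits. With upper-quartile factors Idi1 was 0.052, Sc5d 0.014, Insig2 0.012 and Fasn 0.026, and with limma-voom Idi1 was 0.003. Without the library richest in stromal markers of each group, Mvd was -0.001, Cyp51 -0.053, Ebp -0.005 and Fasn 0.001. With 1 library left out in turn, the log2 fold changes of these genes were Mvd -0.038 to 0.222, Idi1 -0.125 to 0.077, Fdft1 -0.039 to 0.259, Cyp51 -0.093 to 0.109, Ebp -0.025 to 0.054, Sc5d -0.108 to 0.002, Fasn -0.088 to 0.024 and Scd2 -0.034 to 0.127.

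The number of sterol enzymes that rose was 1 and became 2 with thinned counts, limma-voom, DESeq2, or upper-quartile or RLE factors, and 0 to 2 with a library left out. It was 0 with a 1.5-fold minimum and 0 at an adjusted p under 0.01. The number that fell was 6 and became 4 with upper-quartile factors or DESeq2, 5 with no filter, 3 to 8 with a library left out, 0 with the 1.5-fold minimum and 2 at 0.01. Regulators and transport genes that rose numbered 3, and 1 to 4 with a library left out, 0 with the 1.5-fold minimum and 0 at 0.01. Fatty acid genes that rose numbered 5, and 3 to 6 with a library left out, 3 with the 1.5-fold minimum and 3 at 0.01. Over all genes 2782 were higher, 959 with the 1.5-fold minimum and 1740 at 0.01, and 3137 were lower, 823 with the 1.5-fold minimum. A stricter threshold gives fewer calls by construction, and the cause of the other shifts was not tested. MAARS fell under each alternative fit, by 0.88 to 1.01.

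Of the 35 genes Fads2, at under 5 CPM in each library, had the largest standard error (0.26). The standard errors of the sterol enzymes ran from 0.06 (Ebp) to 0.17 (Fdft1) on the log2 scale. At this depth and spread, differences well above a standard error could still miss the threshold. In the main fit these included Acat2 (0.29, SE 0.11, adjusted p = 0.0561) and Sqle (-0.19, SE 0.10, adjusted p = 0.147).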

Other observations

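The following genes were picked from the wider fatty acid list after their values were seen, and no test was made of them as a group. Among enzymes of the elongation cycle of long-chain fatty acids, the elongase Elovl1, the ketoreductase Hsd17b12 and the dehydratases Hacd2 and Hacd3 fell, with log2 fold changes of -0.25, -0.28, -0.43 and -0.16 (adjusted p = 0.00113, 0.00505, 0.00127 and 0.0439), while the enoyl reductase Tecr rose by 0.32 (adjusted p = 0.00198). The elongases Elovl5 and Elovl7 did not pass (log2 fold changes -0.10 and 0.59, adjusted p = 0.20 and 0.12), nor did Elovl6 of the 35 genes. Tecr was at 84.3, 96.1, 88.3 and 77.9 CPM in the control libraries and at 106, 105, 106 and 116 CPM in the MAARS gapmeR libraries, with no overlap. Acacb, which like Acaca encodes an acetyl-CoA carboxylase, went the other way from Acaca. It fell by 0.49 (SE 0.16, adjusted p = 0.0257) with no overlap, from 2.72 to 1.94 CPM, on 37 to 58 counts per library.

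Of the 4 acyl-CoA synthetases tested, Acsl3, a form found on lipid droplets, rose by 0.50 (SE 0.13, adjusted p = 0.00893), from 29.8 ± 6.58 to 42.3 ± 4.21 CPM (mean ± SD, n = 4). Acsl4 and Acsl5 fell by 0.19 and 0.14 (adjusted p = 0.0125 and 0.0403), and Acsl1 did not pass (log2 fold change 0.11, adjusted p = 0.113). Of the glycerolipid genes tested in that list, Lpin2 and Dgat1 rose by 0.30 and 0.28 (adjusted p = 0.00309 and 0.0139) and Agpat2 fell by 0.16 (adjusted p = 0.0215). Gpam, Agpat3 and Dgat2 did not pass, with log2 fold changes of 0.03, 0.09 and -0.60 (adjusted p = 0.817, 0.0882 and 0.0599).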
